A study of Mus musculus with 53 samples.

Results

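H2-T3 encodes the thymus leukaemia (TL) antigen, and its RNA level was followed across 53 mouse T-cell tumour arrays. It is 1 of 12394 genes named on the array. The gene was taken up because of its on and off pattern over these arrays and because of the genes that correlate with it. Its levels and those correlations are therefore given as description, with no test. Of the 22690 probe sets, 2 carry H2-T3 as their only gene. They are called here by the transcripts they were designed from, M16810 and X03051. The M16810 set had the higher mean over the 53 arrays (9.01 against 8.83, log2 intensity) and stands for the gene unless the other is named. Its suffix marks it as a set that may also bind related sequences. Another set is shared by H2-T3 and H2-T18 and was left out.

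The TL antigen is a nonclassical class I molecule of the major histocompatibility complex. It pairs with beta-2 microglobulin as the classical molecules do, but binds the CD8 alpha homodimer and is not known for showing peptides to conventional T cells. It is made by gut epithelium and, in some mouse strains, by cortical thymocytes. Strains of the C57BL/6 type lack it on normal thymocytes, yet their leukaemias can carry it, which gave the antigen its name.

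All samples are labelled as untreated T-cell lymphoblasts of C57BL/6 mice, grouped by the genetic change that predisposes them to lymphoma. Mice that lack Cdkn2a and underwent retroviral insertional mutagenesis gave 9 arrays, TLX1 transgenic mice 6, and TLX1 transgenic mice crossed to a RUNX mutation 6. There were 3 arrays each of beta-catenin, LMO1, NUP98-HOXD13, ThPOK, Tal1-LMO2 double and Olig-LMO1 double transgenic mice, of mice labelled Ikaros plastic and of p53 knockout mice. E2A knockout, Rag E2A double knockout, Tal1 transgenic and Pokemon transgenic mice gave 2 each. The genotype of the Olig-LMO1 arrays names Olig1 while their titles name Olig2, and the crossed arrays are labelled TLX1 negative. The sources used here do not give the promoters of the transgenes, and normal thymus was not analysed here. Whether arrays of 1 background stem from separate animals is not stated. The T-cell genes Cd3e, Thy1 and Ptprc lay above the array median on 53 of 53 arrays, and Cd3d, Cd3g and Cd247 on 52.

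The arrays fall into sets that bear on H2-T3. The 45 probe sets for bacterial control transcripts, which carry no mouse gene, were clustered into a chosen number of 4 sets after the values were seen. One set held 9 arrays, which were all those of the E2A knockout, Rag E2A knockout, Tal1 and Tal1-LMO2 backgrounds. The mean of the 18 hybridisation controls was 12.16 to 12.77 (log2) on these 9 arrays and 9.19 to 11.87 on the 29 arrays of the 8 backgrounds with neither TLX1 nor p53 that lie outside the set. All 45 controls set these 9 arrays apart in 5 of 12 groupings, while the 18 alone, and the 27 controls added before labelling alone, did so in 0 of 12. The same 9 arrays read H2-T3 at 10.73 to 12.84. For these 4 backgrounds, genotype and array set cannot be told apart. High H2-T3 was also read outside this set, on NUP98-HOXD13 and Cdkn2a arrays.

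The sequence around the transcription start of H2-T3 is shown to place the gene, since no deposited value reads its promoter. RefSeq (GRCm38.p6) gives the 300 bases around the start, most of them before it, at chr17:36190102-36190401 on the minus strand, and the capitals mark the single match to TATAAA, on the reverse strand.
H2-T3 promoter: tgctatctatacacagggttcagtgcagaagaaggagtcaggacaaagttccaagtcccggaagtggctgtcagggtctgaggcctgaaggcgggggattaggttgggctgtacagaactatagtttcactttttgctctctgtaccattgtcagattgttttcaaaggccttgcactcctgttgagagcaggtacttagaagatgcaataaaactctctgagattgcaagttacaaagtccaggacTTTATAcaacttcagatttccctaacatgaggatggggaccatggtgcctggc
E proteins and TAL1 bind the E-box, CANNTG. None lies in this window on either strand, while 72.3% of 32851 promoters of this length hold one. TATAAA occurs in 13.6%. Sequence outside the window was not searched, and control of H2-T3 by E proteins or TAL1 was not tested.

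H2-T3 was high on every array of the 3 backgrounds that lack E2A or join Tal1 with LMO2. The Rag E2A knockout arrays read 12.42 and 12.83, the E2A knockout arrays 12.74 and 12.28, and the Tal1-LMO2 arrays 12.07, 12.33 and 12.75. E2A is an E protein, a helix-loop-helix activator of thymocyte genes, and TAL1 and LMO2 act in a complex with E proteins. The Tal1 arrays read 10.73 and 12.84, so both were above the array medians, which lie between 8.56 and 9.20. NUP98-HOXD13 is a fusion of a nuclear pore protein to a homeodomain. Its arrays read 12.38, 11.81 and 7.53, and so held both high and low H2-T3 within one genotype.

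The Cdkn2a knockout tumours were the other mixed background. Replicates 5, 7 and 9 read 10.70, 12.50 and 11.08, while the other 6 arrays read 7.83 to 8.62. The titles carry the name of 1 gene or more for each. These 3 arrays carry the names of Myc with Ras, marked as a mix, of Myc, also marked as a mix, and of Myb. Low arrays also carry Myc with Ras marked as a mix, and Myb. Myc is named on low arrays too, but there without the mark of a mix. All 9 Cdkn2a arrays belong to the largest control set, as do NUP98-HOXD13 replicates 1 and 3, which read 12.38 and 7.53. High and low H2-T3 were thus both measured within that set.

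The remaining backgrounds were low, with exceptions on the M16810 probe set alone. Beta-catenin arrays read 7.77, 7.93 and 7.94, and Ikaros plastic arrays 7.93, 7.83 and 7.80. The ThPOK arrays, which carry a transgene for a factor of the CD4 lineage, read 8.46, 7.92 and 8.25. The 6 TLX1 arrays read 6.91 to 7.17 and the 6 crossed arrays 7.07 to 7.31. By M16810 the LMO1 arrays read 9.24, 9.04 and 8.79, the Pokemon arrays 9.24 and 9.66, Olig-LMO1 replicate 3 10.21 and p53 knockout replicate 3 8.40. The X03051 set read 7.43, 7.32 and 7.36 on those LMO1 arrays, 7.46 and 7.59 on the Pokemon arrays, 7.35 on Olig-LMO1 replicate 3 and 7.13 on p53 knockout replicate 3. The TLX1 arrays read 7.21 to 7.44 on X03051. The raised M16810 readings were therefore not seen by the second probe set, and their source was not tested.

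**Figure D1:**
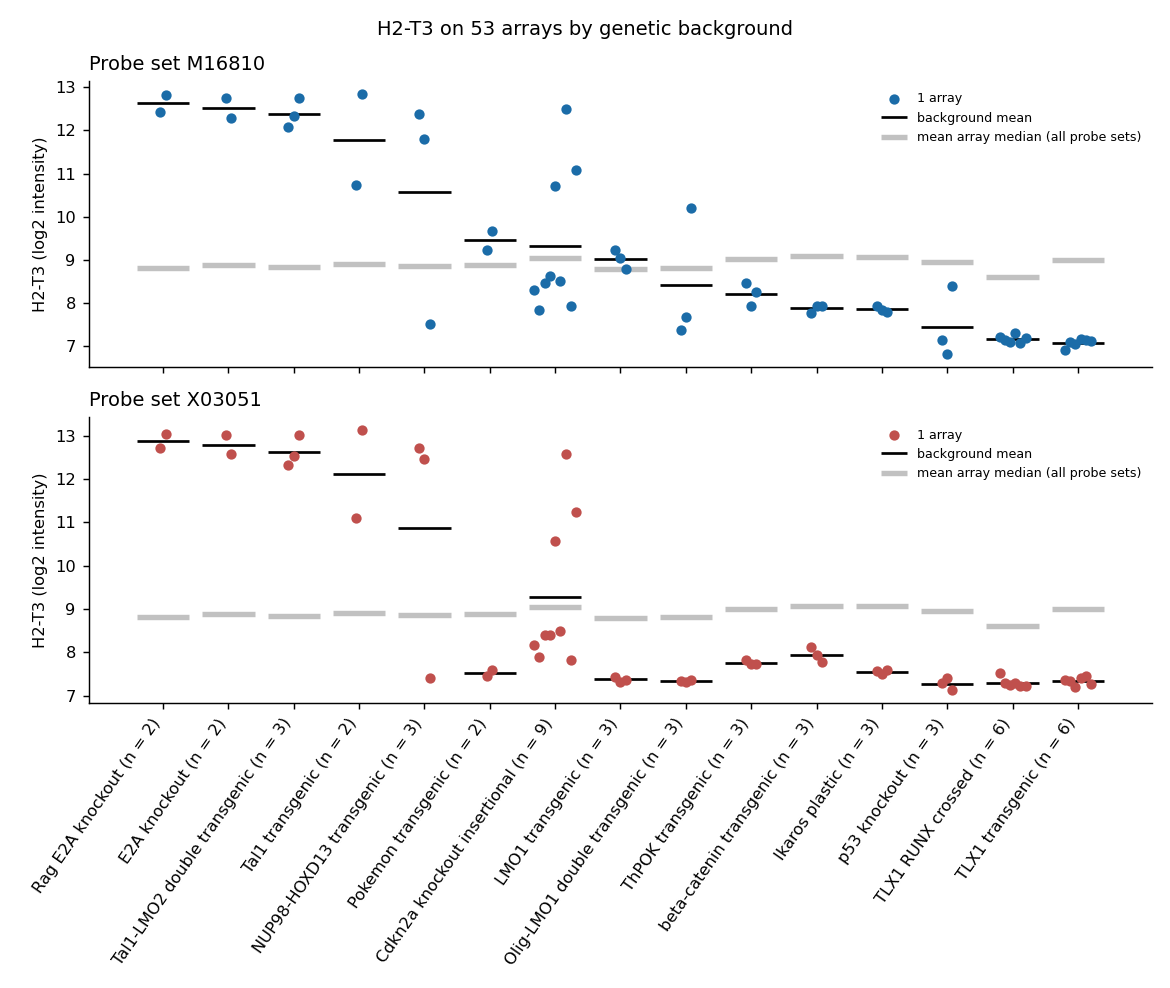
H2-T3 on each of the 53 arrays (points, log2 intensity) by genetic background, for the M16810 probe set (top) and the X03051 probe set (bottom), with black lines at background means and grey lines at the mean array median. E2A, Rag E2A and Tal1-LMO2 arrays are all high, NUP98-HOXD13 and Cdkn2a arrays are split, and LMO1 and Pokemon arrays are raised on M16810 but not on X03051.

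Ordered by mean, the backgrounds ran from Rag E2A knockout (12.62 ± 0.29, SD, n = 2) and E2A knockout (12.51 ± 0.33, n = 2) through Tal1-LMO2 (12.38 ± 0.34, n = 3), Tal1 (11.79 ± 1.49, n = 2) and NUP98-HOXD13 (10.57 ± 2.65, n = 3). The middle held Pokemon (9.45 ± 0.30, n = 2), Cdkn2a (9.33 ± 1.66, n = 9), LMO1 (9.02 ± 0.22, n = 3) and Olig-LMO1 (8.42 ± 1.56, n = 3). ThPOK (8.21 ± 0.27), beta-catenin (7.88 ± 0.095), Ikaros plastic (7.85 ± 0.07) and p53 knockout (7.46 ± 0.84), each of 3 arrays, came next. The crossed (7.17 ± 0.09, n = 6) and TLX1 arrays (7.08 ± 0.09, n = 6) were lowest. No neighbouring pair in this order was separated by the ranges of its arrays. By X03051 the first 5 places were the same, with means of 12.88, 12.80, 12.63, 12.12 and 10.86, and Cdkn2a followed at 9.28 ± 1.73 (n = 9). All other backgrounds lay between 7.27 and 7.94 there, so Pokemon, LMO1 and Olig-LMO1 lost their middle place.

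Counting arrays gave the same picture of an all-or-none gene on one probe set and of a graded one on the other. An array was called high when H2-T3 lay at least 2 log2 units, or 4-fold, above the median of all its probe sets. By M16810, 12 of 53 arrays were high, 7 lay above the median by less, and 34 lay at or below it. The high arrays spanned 2163 to 7348 in intensity and the lowest class 113 to 443. Cdkn2a replicate 9 was the last array inside the threshold, at 2.02 above the median, and Tal1 replicate 1 the first outside, at 1.85. By X03051, 13 arrays were high, 1 lay between and 39 were at or below the median. The widest gap between neighbouring arrays was 0.73 on M16810 and 2.08 on X03051. On X03051 that gap ran from 8.49 on Cdkn2a replicate 6 to 10.57 on Cdkn2a replicate 5 and left 14 arrays above and 39 below.

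**Figure D2:**
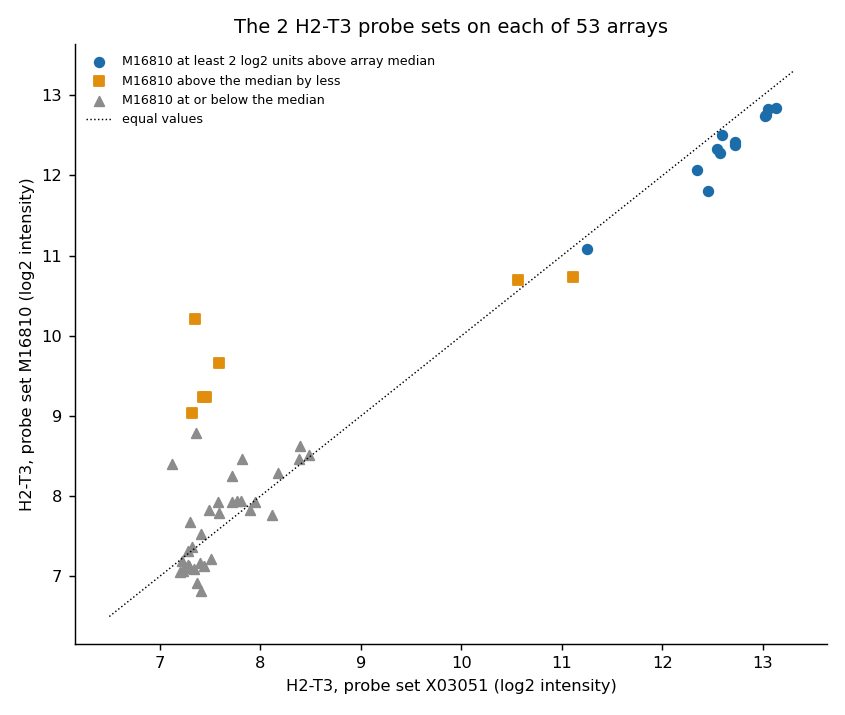
H2-T3 by the X03051 probe set (horizontal) and the M16810 probe set (vertical) on each of 53 arrays, both log2 intensity, with the class by M16810 as colour and shape and a dotted line of equal values. Most arrays at the low and high ends lie near the line, and 5 of the 7 intermediate arrays sit above it with X03051 between 7.32 and 7.59. In the lowest class, LMO1 replicate 3 (8.79 by M16810, 7.36 by X03051) and p53 knockout replicate 3 (8.40 and 7.13) also sit well above it.

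H2-T3 varied more than most genes over the 38 arrays of the 12 backgrounds that name neither TLX1 nor p53. Its standard deviation there was 1.97, which ranked 6 among the 8521 genes that exceeded the array median on 3 or more of these arrays, against a median of 0.325. Differences between backgrounds held 69.4% of its variance, and 78.0% by X03051. With 12 backgrounds some share arises even where they do not differ. The share also includes the E2A, Rag E2A, Tal1 and Tal1-LMO2 arrays, so it does not measure an effect of genotype alone. In bulk tumour RNA, fewer cells that make the transcript and less transcript per cell cannot be told apart.

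Over these 38 arrays the genes most like H2-T3 were its own relatives. Pearson's r with H2-T3 was computed for the 8520 other genes that passed the filter, with a median of -0.026. At least 0.6 was reached by 172 genes (2.02% of genes) and at most -0.6 by 174 (2.04%). The latter count rose to 327 without Cdkn2a replicate 7 and to 280 without Olig-LMO1 replicate 1, and fell to 110 without Rag E2A knockout replicate 4 and to 112 without Tal1-LMO2 replicate 3. The arrays fall into clusters by H2-T3, so a pooled r is largely a contrast between them and is set beside r within backgrounds. H2-T18 has its own name in the annotation, but its probe set carries the same suffix as M16810 and may also bind H2-T3. It had r = 0.945 over 38 arrays and 0.917 after each background's mean was subtracted. It read 12.39, 12.01 and 9.67 on the NUP98-HOXD13 arrays and 9.79 to 12.37 on the Cdkn2a arrays, and so was high where H2-T3 was high. Signals of H2-T3 and H2-T18 cannot be told apart where a probe set binds both. Whether H2-T18 is a separate gene in these mice, or its set reads H2-T3 again, was not tested. H2-Bl, another nonclassical class I gene and the nearest measured neighbour of H2-T3 on one side, had r = 0.852 (0.647 within backgrounds). It read 9.97, 9.04 and 8.26 on the NUP98-HOXD13 arrays, 10.59 and 9.47 on the E2A knockout arrays and 7.80, 7.80 and 8.61 on the Olig-LMO1 arrays. Whether the H2-Bl probe set also binds H2-T3 was not tested.

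The neighbours of H2-T3 were not all alike. Of 20 measured neighbours, 10 on each side by the RefSeq order, 15 passed the filter. H2-Bl and Trim39, a ubiquitin ligase gene, had the highest r (0.852 and 0.679, with 0.647 and 0.644 within backgrounds). Rpp21, which lies between H2-T3 and Trim39 and encodes a subunit of ribonuclease P, had r = 0.152. Nrm and Ppp1r11 had 0.497 and 0.466, with 0.149 and 0.171 within backgrounds. Trim39 and the other neighbours were chosen after their values were seen. Of the 172 genes, 6.40% lie on the chromosome of H2-T3, and 5.18% of all genes compared.

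Below the class I relatives, the genes with the highest r were Ift46 (0.812), a subunit of intraflagellar transport, Asb13 (0.806), an adaptor of ubiquitin ligases, Nfatc2ip (0.766), a partner of NFAT factors, and Paip2 (0.765), an inhibitor of poly(A)-binding protein. Fastkd5 (0.759) and Mrps36 (0.756) serve mitochondria, Svbp (0.747) the detyrosination of tubulin, and Eif2b2 (0.740) translation initiation. After background means were subtracted, r was 0.679 for Asb13, 0.592 for Ift46, 0.537 for Nfatc2ip and 0.246 for Mrps36. The next gene outside the first 10 was Zfp87 (0.737). A second probe set of Asb13 gave 0.791, but a second set of Nfatc2ip gave 0.079, and those of Eif2b2 0.130 and -0.006.

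Genes with the lowest r were Anxa5 (-0.783), a phospholipid-binding annexin, Lpl (-0.735), a lipase of macrophages and adipose tissue, and Hexa (-0.732), a lysosomal enzyme. They were followed by Coro2b (-0.731), an actin-binding coronin, Cyp2c38 (-0.731), a cytochrome, Cmtm3 (-0.730), Stk25 (-0.727), a kinase, Igfbp7 (-0.721), a secreted binding protein, Meox1 (-0.718), a homeobox factor, and Prss3 (-0.718), a trypsin. Coq8a (-0.706) was the first outside. Anxa5 read 9.32 ± 0.53 (SD, n = 2) in E2A knockout and 9.45 ± 0.85 (n = 3) in Tal1-LMO2 arrays, against 11.86 ± 0.18 (n = 3) in beta-catenin and 11.85 ± 0.29 (n = 3) in Ikaros plastic arrays. Within backgrounds its r was only -0.205, and for all 10 genes r there lay between -0.438 and -0.034. Other probe sets of Coro2b and Igfbp7 gave -0.089 and -0.195 or nearer 0.

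**Figure D3:**
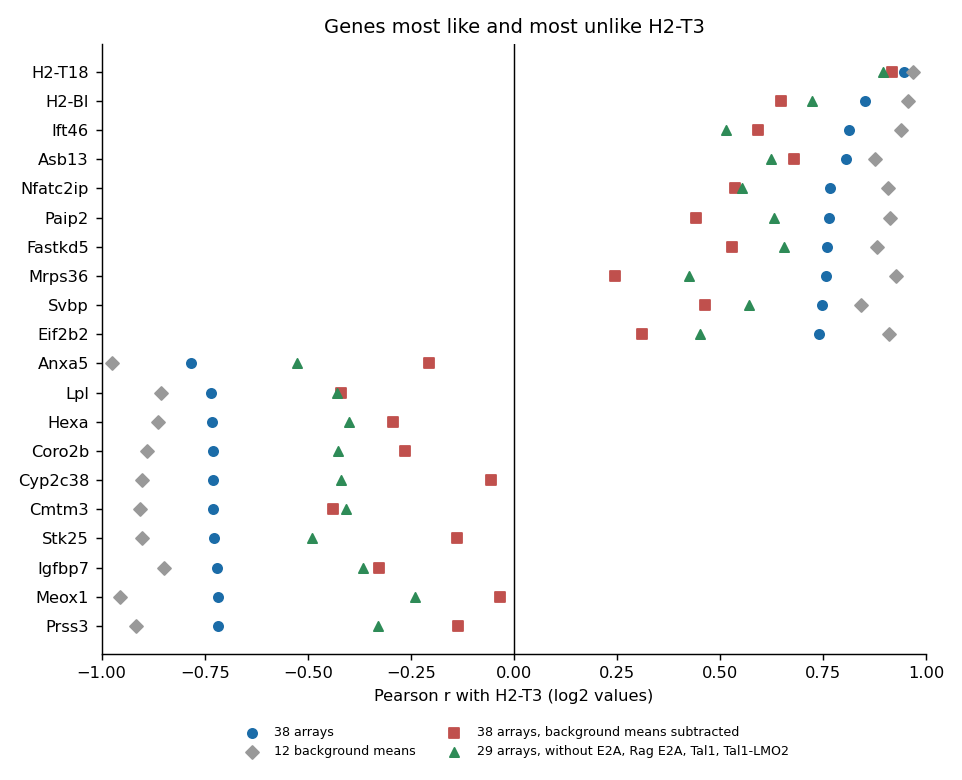
Pearson r with H2-T3 (horizontal, log2 values) for the 10 genes of highest and the 10 of lowest r: over 38 arrays, over the 12 background means, over 38 arrays with background means subtracted, and over the 29 arrays without the E2A, Rag E2A, Tal1 and Tal1-LMO2 backgrounds. H2-T18 lies between 0.895 and 0.969 by each of the 4, H2-Bl falls from 0.852 to 0.647 with background means subtracted, and r of the lowest genes moves towards 0 when background means are subtracted or the 9 arrays are left out.

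Most of these correlations fell below 0.6 in size without the 9 arrays of the E2A, Rag E2A, Tal1 and Tal1-LMO2 set. Over the 29 arrays without them, 12 of the 172 genes kept r of at least 0.6 and 0 of the 174 kept -0.6 or less. The medians moved from 0.645 to 0.406 and from -0.630 to -0.312, while 172 of 172 and 172 of 174 kept their sign. The genes were chosen by r over all 38 arrays, and the 9 arrays hold most of the high H2-T3 readings. A fall in r without them was therefore likely in advance. H2-T18 (0.895) and H2-Bl (0.722) were highest among the 12, with Ccnc (0.700), a cyclin, Cep55 (0.670), Fastkd5 (0.654), Paip2 (0.631) and Asb13 (0.624). The single gene at -0.6 or less without the 9 arrays was Mrpl52 (-0.619), a mitochondrial ribosomal protein gene, whose r over 38 arrays was -0.350. Over the 21 arrays of the largest control set, r was 0.895 for H2-T18, 0.762 for H2-Bl and 0.645 for Asb13. Over the 9 arrays alone, H2-T18 had 0.946 and H2-Bl 0.832, but Asb13 -0.173, Paip2 -0.580 and Fastkd5 -0.374. Among these 9, Tal1 replicate 1 read H2-T3 at 10.73 and all the others 12.07 to 12.84. Values of r there may thus rest largely on that 1 array.

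After background means were subtracted over all 38 arrays, 29 genes had r of at least 0.6 and 17 of at most -0.6. Of these, 6 were also among the 172, namely H2-T18, H2-Bl, Asb13, Trim39, Fam207a and Synj2bp. The 2 shared with the 174 were Cdr2l and Slc25a30, with -0.629 and -0.714 within backgrounds. Names outside the first 10 on each side were chosen after their values were seen. Within the 9 Cdkn2a arrays alone, H2-T18 had r = 0.896 and H2-Bl 0.667. Over the 10 genes of highest r, values there ran from -0.094 (Eif2b2) to 0.896. Over the 10 of lowest r they ran from -0.791 (Lpl) to 0.244 (Meox1), with Anxa5 at -0.235.

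Members of the class I pathway correlated with H2-T3 in both directions. Of 47 listed members, 33 were measured on probe sets of their own, 32 passed the filter, and 9 more, among them H2-T23, H2-T22 and H2-Q7, had only shared probe sets. The median r of the 32 was 0.058, beside -0.026 for all genes. Only H2-Bl reached 0.6 and 0 reached -0.6. The classical heavy chains H2-K1 and H2-D1 had r of -0.110 and -0.146, and B2m, the light chain that the TL antigen needs, -0.097. Among the genes that supply and load peptides, the immunoproteasome subunit Psmb9 had the highest r (0.590, with 0.463 within backgrounds) and the chaperone Pdia3 the lowest (-0.510, with -0.265). The regulators Rfxap and Rfxank, partners in the RFX complex, had 0.592 and -0.569, with 0.140 and -0.227 within backgrounds. The interferon regulatory factors Irf1 and Irf2 had 0.262 and 0.502, with 0.514 and 0.465 within backgrounds. The log2 sum of the 5 regulators measured had 0.345, and 0.440 within backgrounds. Cd8a, whose product forms the homodimer that binds the TL antigen, had 0.239 (0.291 within backgrounds), and Cd8b1, the other CD8 chain, 0.245 (0.305).

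Each background was then compared with the mean of the other 11 in limma over the 38 arrays, with Benjamini-Hochberg adjustment over 8521 genes and a threshold of 0.05. H2-T3 was left out as the chosen gene, and the 4 calls of H2-Bl, chosen by its r, carry no weight. Of the 372 pairs of the other 31 genes and 12 backgrounds, 71 passed (32 higher, 39 lower, 19.1% of pairs), beside 21.2% over all genes. The share of the pathway called was thus near that of all genes. With H2-Bl, the median difference of the list lay between -0.19 and 0.23 over the 12 backgrounds, and that of all genes between -0.07 and 0.04. Of the 71 calls, 39 were kept whichever array was left out. The 4 backgrounds of the 9-array set had 7 of the 71 calls, and few genes of any kind were called there. E2A knockout had 0 higher and 1 lower of 31 (1.89% and 2.18% of all genes), Rag E2A knockout 1 and 0 (1.83% and 5.72%), Tal1-LMO2 0 and 3 (2.24% and 5.37%) and Tal1 0 and 2 (3.79% and 1.89%). Within their control set alone, each against the mean of the other 3 backgrounds, 0 of 128 pairs passed in limma, H2-Bl included, and 13 had an unadjusted p under 0.05.

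Most of the few calls in these backgrounds were decreases. Over all genes, too, lower calls outnumbered higher ones there, except in Tal1 arrays, so this direction is not particular to the list. Fcgrt, the neonatal Fc receptor, was lower in E2A knockout (-0.83 ± 0.22, log2 difference, SE; limma adjusted p = 0.031) and in Tal1-LMO2 arrays (-0.92 ± 0.19; adjusted p = 0.002). Hfe, a class I-like regulator of iron uptake, was lower in Tal1-LMO2 arrays (-0.54 ± 0.12). H2-D1 and Pdia3 were lower in Tal1 arrays by limma (-0.89 ± 0.25, adjusted p = 0.035, and -0.66 ± 0.19, adjusted p = 0.037). B2m there was -0.72 from the mean of the others and did not pass. The single increase was Rfxap in Rag E2A knockout (0.64 ± 0.18; limma adjusted p = 0.029). Of the 7 calls in these 4 backgrounds, that of Fcgrt in Tal1-LMO2 arrays alone was kept whichever array was left out. Fcgrt in E2A knockout, for example, had -0.64 and a limma adjusted p of 0.637 without replicate 1, and H2-D1 in Tal1 arrays -0.39 and 0.696 without replicate 1. The Tal1-LMO2 value of Fcgrt was -0.56 within the control set of these 4 backgrounds (limma adjusted p = 0.780). NUP98-HOXD13 arrays had 0 genes higher and 3 lower of 31 (1.92% and 5.29% of all genes), namely H2-Q10 (-0.40), Cd1d2 (-0.31) and Rfxank (-0.31). Each was lost without replicate 1 and without replicate 2, with limma adjusted p from 0.123 to 0.323.

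The Cdkn2a, beta-catenin and Ikaros plastic backgrounds had the most calls in the list and also the largest shares over all genes. The Cdkn2a arrays had 10 members higher and 11 lower (31.9% and 19.9% of all genes). The classical genes rose together, H2-K1 by 0.68 ± 0.14 and H2-D1 by 0.67 ± 0.13 (limma), and H2-M9 by 0.92 ± 0.08. Immunoproteasome members fell there, with differences of -0.69 for Psmb9 and -0.66 for Psmb10, as did Irf1, an interferon-regulated activator (-0.92). Within the largest control set alone the calls of Psmb9 (-0.33; limma adjusted p = 0.266) and Psmb10 (-0.35; adjusted p = 0.071) were lost, while those of H2-K1, H2-D1, H2-M9 and Irf1 were kept. Beta-catenin arrays had 8 higher and 6 lower (26.4% and 15.9% of all genes), with the chaperones Pdia3 (1.07 ± 0.16) and Canx (0.62 ± 0.12) higher and Tap2, of the peptide transporter, lower (-1.18 ± 0.25). Ikaros plastic arrays had 7 higher and 3 lower (24.9% and 15.8%), among them B2m (0.51 ± 0.20; limma adjusted p = 0.042) and, lower, Cd8a (-1.06) and Cd8b1 (-1.33). These calls were lost without Ikaros plastic replicate 1 or 2, with limma adjusted p from 0.105 to 0.289. ThPOK arrays had 3 higher and 2 lower (22.1% and 13.4%). Cd8a, which ThPOK is known to repress, had a difference of -2.07 ± 0.37 there. No ThPOK array lies in the largest control set, so this difference could not be checked within it. LMO1 arrays had 2 higher and 3 lower (5.84% and 17.5%), Olig-LMO1 arrays 1 higher and 4 lower (5.29% and 15.9%), and Pokemon arrays 0 higher and 1 lower (2.11% and 5.05%), Canx at -0.95 ± 0.14.

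**Figure D4:**
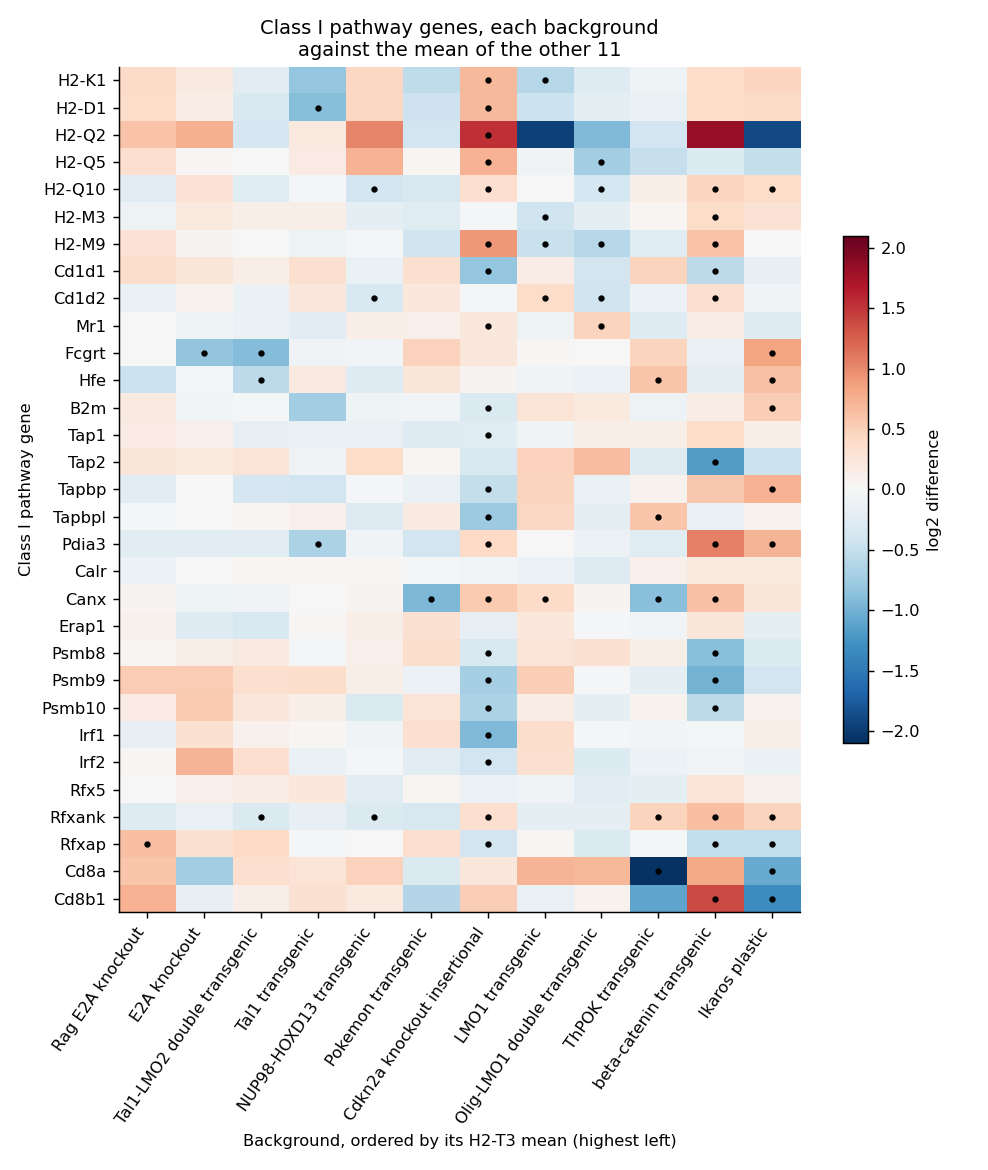
Log2 difference of each of 31 class I pathway genes (rows; H2-T3 and H2-Bl left out) between a background and the mean of the other 11 (columns, ordered by the H2-T3 mean), red for higher and blue for lower, with a dot where limma's adjusted p was under 0.05. The 4 leftmost columns hold 7 of the 71 dots.

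Markers of other cells moved with H2-T3 in the opposite direction. All 7 listed myeloid genes passed the filter, with a median r of -0.575, and 2 reached -0.6 or less, among them the receptor Csf1r (-0.649). The 5 stromal genes had a median of -0.551, with the collagen gene Col3a1 lowest (-0.606). The summed myeloid intensity was 3945 to 14704 (median 7035) on the 9 arrays of the E2A, Rag E2A, Tal1 and Tal1-LMO2 set and 11455 to 30607 (median 17148) on the other 29. The summed stromal intensity was 1642 to 10929 on the 9 and 3932 to 19610 on the 29. Against the log2 sums, r of H2-T3 over 38 arrays was -0.677 for myeloid and -0.575 for stroma. It was -0.232 and -0.049 without the 9 arrays, and -0.028 and -0.034 within backgrounds. The part of these cells in the levels of H2-T3 was not tested. Lists of T-cell and cortical thymocyte genes gave 28938 to 43984 and 25104 to 33441 on the 9 arrays and 24037 to 48937 and 6429 to 39690 on the 29. The median r of cortical genes was 0.288, with Dntt, the polymerase of receptor rearrangement, highest (0.451) and Cd4 lowest (-0.459). Within backgrounds r was 0.639 for Arpp21, 0.614 for Rag1, a recombinase gene, 0.609 for Dntt and 0.502 for Ptcra, of the pre-T-cell receptor, but -0.447 for Cd4 and -0.306 for the chemokine receptor Ccr9. Arpp21, Rag1, Ptcra and Ccr9 were chosen after their values were seen. The log2 sum of the 10 cortical genes had r = 0.321 over 38 arrays and 0.371 within backgrounds. The part of cortical thymocyte-like cells in the levels of H2-T3 was not tested. Gut epithelial genes, of the other tissue that makes the TL antigen, had a median of -0.287 among the 5 that passed of 11 listed.

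**Figure D5:**
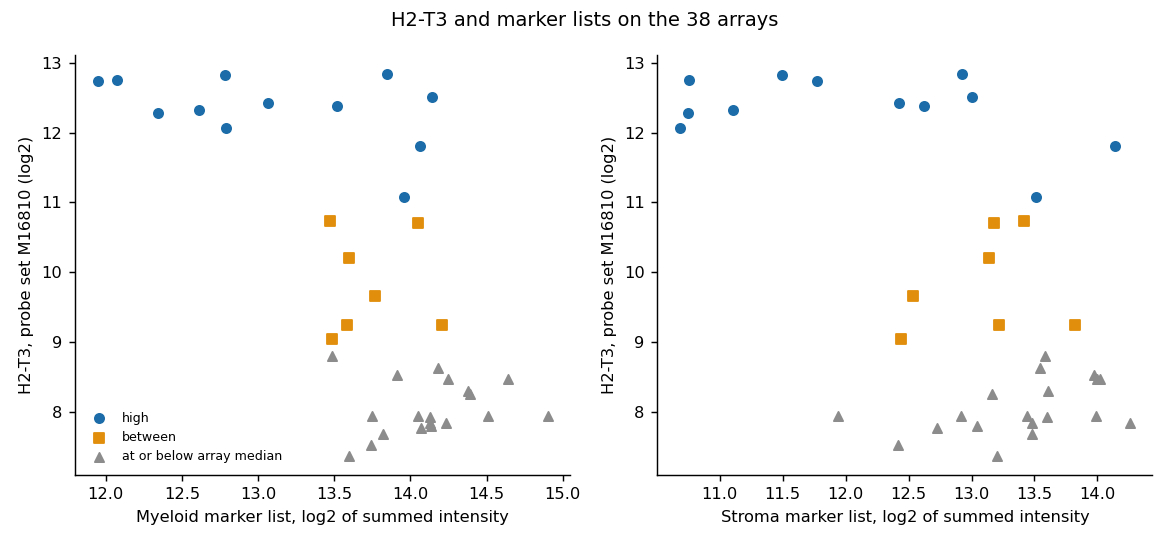
H2-T3 (vertical, M16810 probe set, log2 intensity) against the log2 summed intensity of the myeloid list (left) and the stroma list (right) on the 38 arrays, with the class of H2-T3 as colour and shape. High arrays span 3945 to 18064 in summed myeloid intensity before log2 and the other arrays 11374 to 30607, and on the stroma axis 1642 to 18073 and 3932 to 19610.

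Measures of the arrays themselves and of the strain were set beside these values. Over the 38 arrays, r of H2-T3 was -0.486 with the array median and 0.318 with a measure of RNA quality, the excess of 3' over 5' signal of beta-actin in log2. Their part was not tested. H2-Ea, which mice of the C57BL/6 haplotype do not express from their deleted promoter, read 10.02 or more on each of the 38 arrays. It read 10.39 and 10.43 in E2A knockout, 10.03 and 10.15 in Rag E2A knockout, and a median of 11.49 in Cdkn2a arrays, all above the array medians. The 6 crossed arrays were lower, with a median of 8.41 and a highest value of 8.85, while the TLX1 arrays read 10.79 to 11.95 and the p53 knockout arrays 11.08 to 11.94. The r of H2-Ea with H2-T3 over the 38 arrays was -0.517, and -0.285 within backgrounds. Glo1, the other listed gene that differs between haplotypes of this region, had -0.050 and -0.159. Whether the H2-Ea probe set also binds other sequences was not tested. A reading above the array median is thus not shown to be H2-Ea RNA. The strain of origin of the tumours was not tested either.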

How the data were processed

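RNA of 53 tumour samples was measured on 1-colour oligonucleotide arrays. The deposited values are linear intensities, 1 per probe set and array. The sources used here do not give how the authors normalized them. Array median intensities were 377 to 590, and no column lacked a sample. Log2 was taken with no further scaling. Gene names came from the platform annotation: 20393 probe sets had 1 symbol, 691 several and 1606 none, and 20364 were updated by Entrez identifier. A gene was read from its probe set of highest mean, and genes that exceeded the array median on 3 or more of 38 arrays were kept. No arrays were identical, the highest pairwise r being 0.988.

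H2-T3, the class I list and the marker lists were chosen with earlier results of these data known. Genes named by r were the 10 highest and 10 lowest, leaving out probe sets of several genes, clone names, receptor segments and sex-linked markers, and members of the class I list could be named. limma 3.58.1 (R 4.3.3) compared each background with the mean of the other 11, fitting all 38 arrays together. Tested on simulated data of 8521 genes, the fit found 84.5% of genes changed by 1 log2 unit in the Tal1 comparison (2 arrays), 90.5% in that of LMO1 (3) and 99.0% in that of Cdkn2a (9). The simulation changed 200 genes in 1 background and gave a gene the same independent noise in all backgrounds. Recovery in the measured data may therefore be lower. The p-values measure only the spread between samples, which may be technical. Other steps ran in Python 3.11.15 (SciPy 1.17.1, pandas 2.3.3, NumPy 2.4.6), with plots by Matplotlib 3.10.9. Alternatives changed the scale, filter, probe set, arrays, measure of likeness and threshold. Those using the control sets, those using the other H2-T3 probe set (except in the count of high arrays at 2 units), and the fit without Cdkn2a arrays and without a block were chosen after seeing the data.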

Additional observations from a re-analysis of the deposited data

Results flagged for a closer look

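Groups of 4 to 10 arrays were searched for a single array far from the others, and 2 of 12 such checks met the criterion. Chance alone gives about 5% of groups. By the X03051 probe set, H2-T3 on TLX1 RUNX crossed replicate 1 read 7.51, and the nearest of the other 5 arrays read 7.29. H2-Bl on Cdkn2a knockout replicate 7 read 9.78, and the nearest of the other 8 read 9.24. That array also had the highest H2-T3 of its background, at 12.50.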

How the results depend on the processing

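The count of 12 high arrays was also 12 after quantile normalization and after centring, 13 by X03051 or the mean of both sets, 15 at 1 unit and 10 at 3 units above the median, and 11 to 12 without any 1 array. By X03051 it was 14 at 1 unit and 11 at 3. Background means moved by more than their spread after quantile normalization and centring in Ikaros plastic (7.78 and 7.70), crossed (7.26 and 7.47) and beta-catenin arrays (7.76 and 7.71). By X03051 they moved so in Ikaros plastic (7.55), LMO1 (7.37), Pokemon (7.52), crossed (7.30), TLX1 (7.34) and ThPOK arrays (7.75).

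The 172 genes with r of at least 0.6 became 479 after centring, 84 over all 53 arrays, 434 without Cdkn2a, 269 without Olig-LMO1, 98 without Tal1-LMO2, 1190 over background means and 29 with these subtracted. Over the control sets they became 27 without the 9 arrays, 51 in the largest set and 500 in the 9 alone. The 174 genes with r of -0.6 or less became 108 by Spearman's rho, 102 with the mean of probe sets, 91 by X03051, 63 over all 53 arrays, 510 without Cdkn2a, 98 without E2A knockout, 368 without LMO1, 455 without Olig-LMO1, 83 without Rag E2A knockout and 57 without Tal1-LMO2. They became 1090 over background means, 17 with these subtracted, 1 without the 9 arrays, 11 in the largest set and 630 in the 9 alone. Without 1 array the counts were 132 to 248 and 110 to 327. In the 9 arrays alone r changed sign for Asb13 (-0.173), Nfatc2ip (-0.042), Paip2 (-0.580), Fastkd5 (-0.374), Mrps36 (-0.052), Svbp (-0.227), Coro2b (0.088) and Stk25 (0.319). H2-T3 there read 10.73 on Tal1 replicate 1 and 12.07 to 12.84 on all the others. These values, and the counts of 500 and 630, may thus rest largely on that 1 array. The cause of the sign changes was not tested.

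With H2-Bl counted, 75 of 384 class I pairs passed in limma. The count was 43 of 224 in the largest control set, 0 of 128 in the 9 arrays, 67 of 256 without them, and 69 to 91 without 1 array, where a lone array was assumed to vary like the other groups. The difference of Rfxank in Tal1-LMO2 arrays turned to 0.046 with the mean of probe sets. Replicate numbers did not pair the arrays: over 118 same-number pairs the mean correlation of deviations was -0.011, and 0.005 over 263 other pairs. A replicate block gave 48 calls, beside 52 on the same arrays without it.

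The sources used here give no raw signals or detection calls, so a low reading is not shown to be absence, and 2 or 3 arrays a background limit precision.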
